A study of Apis mellifera with 24 samples.

Results

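In the ovaries of honey bee queens, 77 mRNA transcripts were higher while egg laying was stopped by caging than in queens that were laying, whether never caged or already released. The 77 transcripts were chosen by their measured values. A transcript needed a mean of at least 2 FPKM (fragments mapped to a transcript, scaled for its length and for the size of the library) over the 9 libraries of mated queens, every value of the caged queens above every value of the egg-laying and the recovery queens, and a caged mean at least 1.5 times each of the other 2 means. Of 21596 transcripts in the table, 11236 reached the level, 331 of these had every caged value above all others, and the 77 that met the whole rule were 0.685% of the 11236. A further 4 transcripts met the rule but were left out of the set by name, among them vitellogenin and apolipophorins. The comparisons of caged with laying queens therefore describe how the set was chosen, and support nothing. The virgin libraries were not used for choosing. The difference between recovery and egg-laying queens was not used directly, but the values of both groups were held below the caged ones.

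The data were 12 ovary libraries in 4 groups of 3, each from 1 queen of Apis mellifera ligustica. The first group was virgin and the second was egg-laying. The third, egg-laying inhibited queens, had been confined in a small cage for 7 days. The fourth, egg-laying recovery queens, were caged for 7 days, let go and sampled on day 8, when they laid again. All 12 queens were sisters from 1 source colony, each lived in a nucleus hive of her own, and the mated queens were instrumentally inseminated with the same semen. The labels give the reproductive stage but no age in days, so the caging and the age of a queen cannot be told apart for the inhibited and recovery groups.

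A queen's ovary consists of many ovarioles in which germ cells, nurse cells and follicle cells move as a production line towards mature eggs. Yolk protein comes largely from the fat body through the haemolymph. When a laying queen is confined, eggs are no longer deposited, and laying resumes soon after release, so a caged mated ovary differs from a virgin ovary, which has not yet been activated. In whole ovaries, fewer cells of a type and less RNA per cell cannot be told apart.

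The ovary label was checked against markers. The summed level of 4 germline and eggshell genes was 515 to 630 FPKM in the mated libraries and 183 to 299.5 FPKM in the virgin libraries. Muscle markers (8 genes) summed to 487 to 881 FPKM in virgin libraries and to 175 to 228 FPKM in mated ones. Steps between low values gave the virgin libraries 1.69 to 1.82 times the depth of the first inhibited library and the second egg-laying library 1.38 times. The other mated libraries lay at 0.918 to 1.06 times that depth, and the absolute depth is unknown. The sum of all FPKM was 355905 to 405177 in virgin libraries and 521059 to 559542 in mated ones. Within a group, libraries correlated across transcripts at a Spearman rho of 0.960 to 0.971.

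Most members were raised modestly and were of low abundance. The smaller of the inhibited to egg-laying and the inhibited to recovery ratio had a median of 1.71, was under 2 for 60 members, and was at least 3 for 6 members. The mean over the mated libraries had a median of 5.36 FPKM, against 15.9 FPKM for the 11236 transcripts at the same minimum, and 33 members were under 5 FPKM while 10 reached 20 FPKM. The members also varied more between queens of a group. Their median coefficient of variation was 24.5% in egg-laying, 18.1% in inhibited and 20.1% in recovery queens, against 11.9%, 9.86% and 10.4% for the 11236 transcripts. This comparison was not matched for level. Among the inhibited queens, the first held the highest value for 38 members, the second for 19 and the third for 20, where they did so for 32.3%, 30.5% and 37.1% of the 11236 transcripts.

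**Figure D1:**
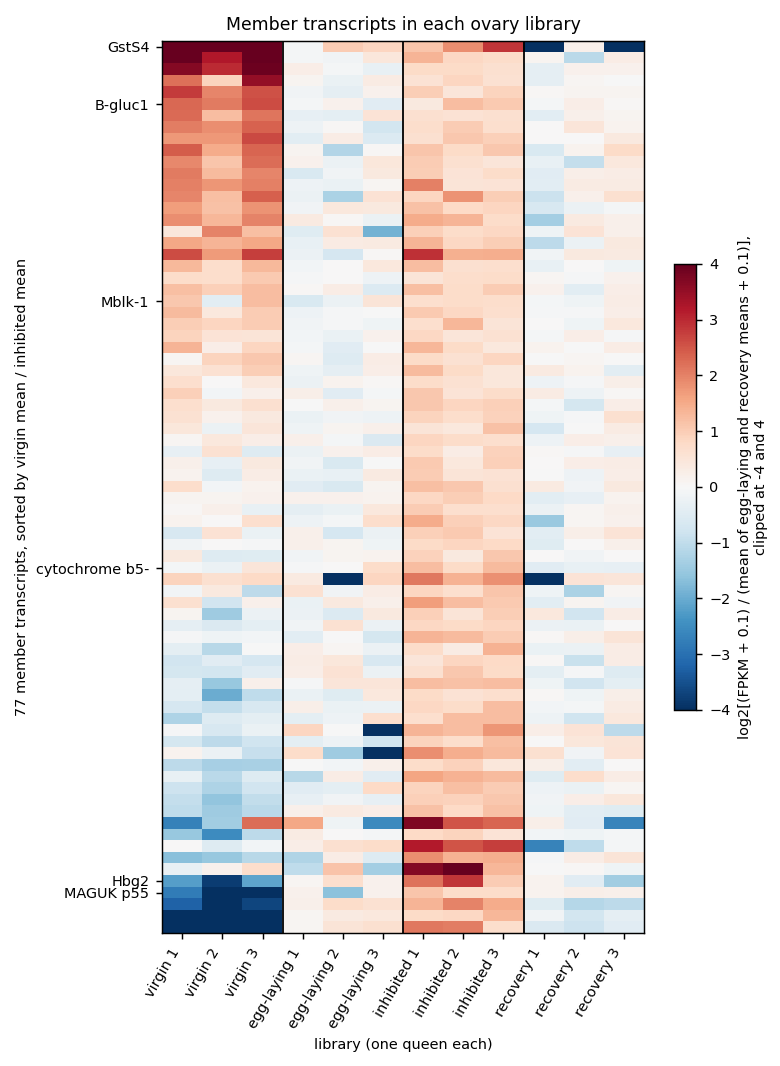
Each row is 1 of the 77 member transcripts, sorted by the virgin mean over the inhibited mean, and each column is 1 library (1 queen). Colour gives log2 of the FPKM over the average of the egg-laying and recovery means, both with 0.1 added; the inhibited columns are above that average by the choice of members, while the virgin columns run from far above (top) to far below (bottom).

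Only 6 of the 77 members carry a gene name in the tables used here, 66 carry a gene ID (64 genes) and 11 carry neither. The named ones are Hbg2, GstS4, B-gluc1, Mblk-1, MAGUK p55 subfamily member 6 and a cytochrome b5-like gene. The unnamed members are given by transcript and gene ID, and no role is known for them here.

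The abundant named member is Hbg2 (NM_001040259.1, gene 411257), an alpha-glucosidase, an enzyme that releases glucose from sucrose and related sugars. Its level was 238, 386 and 108 FPKM in the inhibited queens, 56.2, 83.6 and 58.9 FPKM in the egg-laying queens and 58.7, 38.7 and 20.2 FPKM in the recovery queens. In the virgin queens it was 11.3, 3.74 and 12.2 FPKM. All mated values lay above all virgin values, and the inhibited group spanned more than a 3-fold range, with the third queen lowest. The inhibited mean was 244 ± 139 FPKM (SD, n = 3), 3.68 times the egg-laying mean and 6.23 times the recovery mean. The virgin values did not serve in the choice, whereas the mated values in every comparison with virgin queens did. Against virgin queens, Hbg2 was higher by 4.56 ± 0.51 (SE) on the log2(FPKM + 1) scale in inhibited queens (limma, adjusted p = 1.56e-05), by 2.85 ± 0.51 in egg-laying queens (adjusted p = 0.000538) and by 2.01 ± 0.51 in recovery queens (adjusted p = 0.00574). All p-values of this kind come from 1 limma fit over 17924 transcripts with Benjamini-Hochberg adjustment, and n is 3 queens a group.

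The other alpha-glucosidases of the table were read beside Hbg2, in a family added once the members were known. AGLU2, which is also called Hbg1, was at 1.69, 13.9 and 2.46 FPKM in the inhibited queens, at 34.0, 32.7 and 38.2 FPKM in the egg-laying queens and at 39.2, 28.0 and 21.4 FPKM in the recovery queens. Its inhibited values were thus all below its laying values, the reverse of Hbg2, with a difference of -2.80 ± 0.55 from egg-laying queens (adjusted p = 0.101) and one of 2.52 ± 0.55 on release (adjusted p = 0.0707). Neither passed the threshold of 0.05. In the virgin queens AGLU2 was at 6.35, 2.12 and 7.36 FPKM, within the span of its inhibited values, whereas the virgin values of Hbg2 were all below its inhibited ones. Hbg3 was listed at 0 or below 0.1 FPKM in all 12 libraries.

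GstS4 (gene 411045), a sigma class glutathione S-transferase that couples glutathione to reactive compounds, entered through a minor transcript, XM_006560503.1. Its values were 5.17, 8.74 and 17.9 FPKM in inhibited queens and 2.23, 4.82 and 4.34 FPKM in egg-laying queens. In the recovery queens it was listed at 0, 2.69 and 0 FPKM. The virgin values of 87.5, 68.1 and 90.9 FPKM lay far above those of all mated queens. The difference from virgin was -2.98 ± 0.50 in inhibited queens (limma, adjusted p = 0.000376) and -5.74 ± 0.50 in recovery queens (adjusted p = 2.57e-06); with a pseudocount of 0.01 the former was -3.13 and no longer passed the test. This transcript made up 9.90% of the summed level of its gene. The other transcript of GstS4, NM_001142656.2, was at 35.7, 53.2 and 45.8 FPKM in inhibited queens and at 66.7, 45.5 and 57.8 FPKM in egg-laying queens, so the groups overlapped, and the sum over the gene was 60.5 FPKM in egg-laying, 55.5 FPKM in inhibited and 38.4 FPKM in recovery queens. The gene sum was thus not higher in inhibited than in egg-laying queens.

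B-gluc1 (NM_001163714.1, gene 411899, also Gnbp1-2) belongs to the glucan recognition proteins, insect relatives of which bind glucans of microbial cell walls. It was at 11.9, 21.5 and 18.8 FPKM in inhibited, 8.57, 10.2 and 6.52 FPKM in egg-laying and 8.54, 10.9 and 9.35 FPKM in recovery queens. Virgin queens had 44.6, 38.0 and 55.7 FPKM, above every mated queen. The caged level was 17.4 ± 4.96 FPKM (SD, n = 3), and it remained below the virgin level by 1.38 ± 0.22 on the log2 scale (limma, adjusted p = 0.000223). Def1, the antimicrobial peptide defensin 1, is not a member. It reached 42.6 FPKM in the first inhibited queen but 8.45 and 5.88 FPKM in the other two, which overlapped the 4.52 to 9.65 FPKM of egg-laying queens. Of 12 genes for glucan recognition and Toll or Imd signalling, a family added after the members were known, B-gluc1 was the only member. None of the 12 passed the limma test between inhibited and egg-laying queens or between recovery and egg-laying queens. At an unadjusted p under 0.05 there was 1 in each, against 7.65% and 11.5% of all transcripts. The 12 include B-gluc1, which was chosen by the first of these differences, so that count supports nothing.

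Mblk-1 (XM_006563323.1, gene 408521) encodes a transcription factor whose fruit fly relative, E93, is induced by ecdysone. Its values in the inhibited queens, 9.49, 9.94 and 9.57 FPKM, were tightly grouped. Egg-laying queens had 3.80, 5.02 and 8.43 FPKM, recovery queens 5.58, 5.25 and 7.28 FPKM, and virgin queens 12.5, 4.34 and 14.1 FPKM. The virgin values lay on both sides of the inhibited ones, and the difference of 0.05 ± 0.35 between inhibited and virgin queens did not pass the test (limma, adjusted p = 0.917). Among the 9 genes found of the juvenile hormone and ecdysone list, Mblk-1 was the only member. The ecdysone receptor gene Ecr had group means of 31.9, 32.0 and 32.1 FPKM in egg-laying, inhibited and recovery queens. Of these 9 genes, 4 were higher and 1 was lower in inhibited than in virgin queens, where 27.5% and 26.3% of all transcripts were, with a median difference of 0.05 against -0.04 over all transcripts.

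MAGUK p55 subfamily member 6 (XM_006566382.1, gene 408359), a membrane-associated scaffold protein, was at 21.8, 16.9 and 16.8 FPKM in inhibited queens and at 11.4, 3.16 and 11.3 FPKM in egg-laying queens. Recovery queens had 11, 11.9 and 11.6 FPKM. In virgin queens this transcript was nearly absent at 1.35, 0.339 and 0.0349 FPKM. The transcript was thus higher in all 3 mated groups, by 3.71 ± 0.39 in inhibited queens (limma, adjusted p = 1.01e-05). It held 41.0% of the summed level of its gene, and that sum in inhibited queens was 1.95 times the egg-laying and 1.23 times the recovery level. The gene as a whole was not near absent in virgin queens, where the sum was 12.4 FPKM. It was 20.7, 40.5 and 32.9 FPKM in egg-laying, inhibited and recovery queens.

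The cytochrome b5-like transcript (XM_006566372.1, gene 726913) belongs to the small haem proteins that pass electrons to desaturases and P450 enzymes. It was at 7.57, 5.45 and 7.81 FPKM in inhibited, 3.05, 3.23 and 5.39 FPKM in egg-laying and 2.30, 2.56 and 2.5 FPKM in recovery queens. Its lowest inhibited value stood just above its highest egg-laying value. It was 5.56% of its gene's sum, which was 81.2, 91.2 and 66.8 FPKM in egg-laying, inhibited and recovery queens. Both this gene and the MAGUK gene lie on chromosome 11 of the RefSeq assembly Amel_HAv3.1, and the study lists them in the region it examined for ovary size. That list was also a source of the gene names used here. The place of these named members in the region therefore follows from how they were named, and supports nothing.

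**Figure D2:**
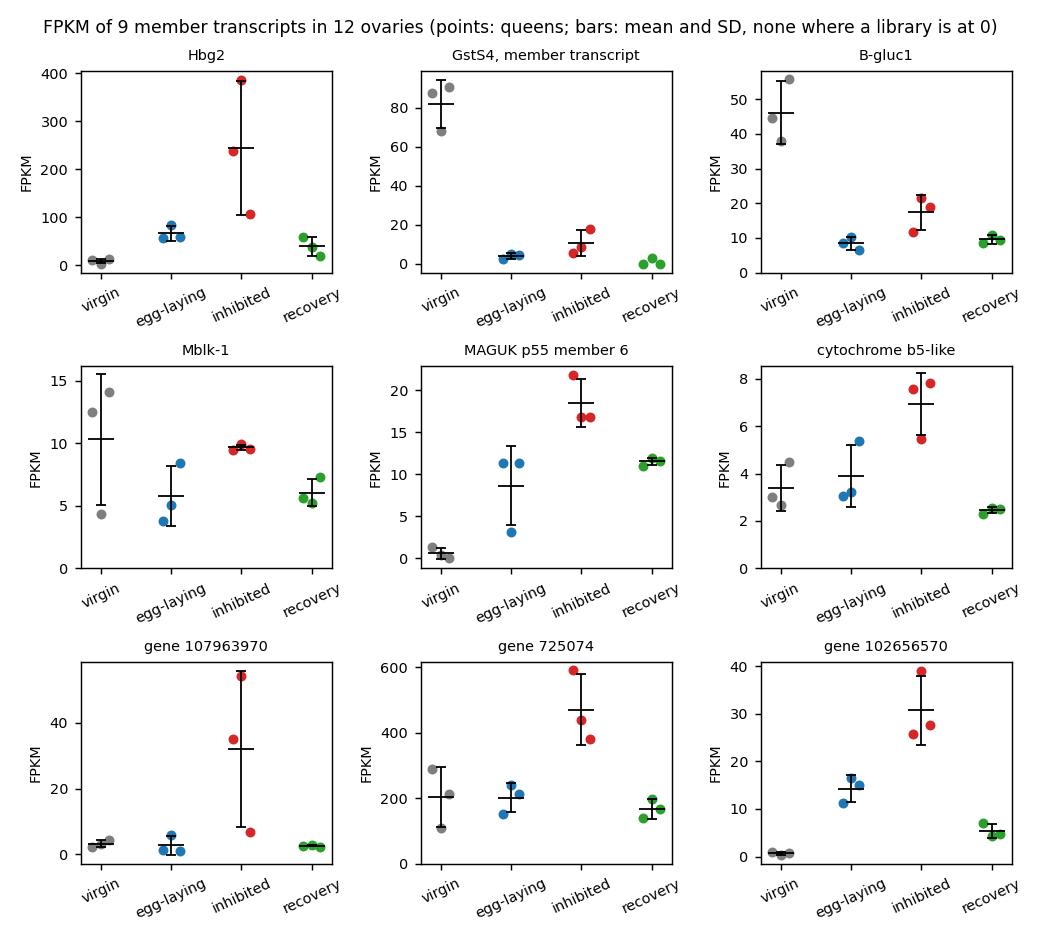
FPKM of 9 member transcripts in the 4 groups; each point is 1 queen, and the bar is the mean with the SD of 3 queens, left out where a library is listed at 0. In every panel the 3 inhibited points lie above the 6 egg-laying and recovery points, as the rule requires, while the virgin points range from far above them (GstS4, B-gluc1) to near 0 (the MAGUK p55 member transcript, gene 102656570).

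The smaller of the 2 ratios was widest for XM_001121053.3 (gene 107963970). Inhibited queens had 35.1, 54.1 and 6.86 FPKM, egg-laying queens 1.26, 6.0 and 0.967 FPKM, and recovery queens 2.66, 2.75 and 2.37 FPKM. The inhibited mean was 11.7 times the egg-laying mean, but the third inhibited queen was only just above the second egg-laying queen. Its virgin values, 2.18, 3.04 and 4.39 FPKM, fell among the laying ones, and the inhibited group was higher than virgin by 2.61 ± 0.63 (limma, adjusted p = 0.00449).

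A steadier rise was seen in XM_003251959.2 (gene 100578021). It was at 31.2, 19.8 and 23.6 FPKM in inhibited, 4.09, 5.29 and 5.66 FPKM in egg-laying and 0.446, 1.6 and 3.17 FPKM in recovery queens. Here the recovery values were all below the egg-laying values, a difference of -1.25 ± 0.32 (limma, adjusted p = 0.229) that did not pass the test. XM_006558497.1, which has no gene ID, was at 7.51, 5.46 and 5.67 FPKM in inhibited queens against 0.809, 2.5 and 1.38 FPKM in egg-laying and 1.95, 2.51 and 2.88 FPKM in recovery queens. Virgin queens had 0.554 to 0.872 FPKM, and the inhibited queens were higher by 2.09 ± 0.24 (adjusted p = 1.90e-05).

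Some large ratios came with strong spread. XM_393105.5 (gene 409602) was at 17.4 FPKM in the first inhibited queen and at 6.04 and 6.22 FPKM in the other two. XM_396815.4 (gene 413370) had the same shape, with 12.2, 4.24 and 4.33 FPKM. For comparison, the summed level of the 6 immune genes of the list was 57.4 FPKM in the first inhibited queen and 17.3 and 12.6 FPKM in the others. Def1 alone made up 42.6 FPKM of the first sum and 8.45 and 5.88 FPKM of the others. Whether these genes and the 2 transcripts move together through 1 source was not tested. For both transcripts the inhibited values still exceeded every laying value, of which the highest were 2.89 and 3.72 FPKM.

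In 3 further members 1 or 2 laying values were near 0. XM_006564702.1 (gene 100578611) had 8.52, 3.60 and 3.22 FPKM in inhibited queens, while 1 egg-laying and 1 recovery queen were below 0.02 FPKM. XM_392994.5 (gene 409487) was at 18.3, 11.1 and 14.9 FPKM in inhibited queens and was listed at 0 in the second egg-laying and the first recovery queen. XM_006564107.1 (gene 551020) was at 8.73, 8.02 and 11.6 FPKM in inhibited queens and at 0.00157 FPKM in the third egg-laying queen. They held 12.7%, 31.1% and 11.9% of the sum of their genes, and the sums in inhibited queens were only 1.06, 1.00 and 1.01 times the higher of their laying means. XM_003249377.2 (gene 100576095), the only transcript with that gene ID here, was at 14.1, 10.6 and 9.22 FPKM in inhibited queens and at 6.34, 1.37 and 0.128 FPKM in egg-laying queens.

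The highest levels were those of XM_006560014.1 (gene 725074), with 593, 438 and 382 FPKM in inhibited, 153, 241 and 212 FPKM in egg-laying and 139, 198 and 167 FPKM in recovery queens. The virgin values of 290, 108 and 214 FPKM overlapped the laying ones and not the inhibited ones. It was higher in inhibited than in virgin queens by 1.29 ± 0.31 (limma, adjusted p = 0.00437), a call that was lost with equal sums (0.81) and with quantile normalization (0.76). XM_006559982.1 (gene 552479), whose inhibited mean ranked after that of Hbg2, was at 180, 156 and 184 FPKM in inhibited queens, 80.5, 87.2 and 83.1 FPKM in egg-laying queens and 85.2, 93.2 and 149 FPKM in recovery queens. The third recovery queen was close to the inhibited range, at 149 against 156 FPKM.

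Lower in level, XM_623964.4 (gene 551572) was at 39.6, 37.2 and 31.2 FPKM in inhibited, 11.4, 15.4 and 9.54 FPKM in egg-laying and 16.2, 18.1 and 22.3 FPKM in recovery queens. All recovery values were above all egg-laying values, a difference of 0.61 ± 0.16 (limma, adjusted p = 0.238). Of similar level, XM_006564945.1 (gene 724293) and XM_006569911.1 (gene 726737), had inhibited means of 44.0 ± 5.72 and 33.8 ± 5.92 FPKM (SD, n = 3).

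The virgin level placed the members in clearly different positions. By group means, 27 members (35.1%) were higher in virgin than in inhibited queens, against 40.4% of the 11236 transcripts at the same minimum, and 23 (29.9%) were lower in virgin than in both laying groups, against 53.7%. The virgin mean lay between the laying and the inhibited means for 14 members (18.2%, against 1.85%), a gap that the choice of members made wide. It lay within the range of the laying means for 13 (16.9%, against 4.09%). Every virgin value was above every inhibited value for 13 members (16.9%), against 24.9% of the 11236 transcripts, and below every egg-laying and recovery value for 12 (15.6%), against 38.8%. By the fit, 40 of the 77 members (51.9%) were higher in inhibited than in virgin queens at an adjusted p under 0.05, against 27.5% of all transcripts tested, and 14 (18.2%) were lower, against 26.3%. The inhibited values had been chosen to be high. When all libraries were rescaled to the same sum, which moves the median inhibited minus virgin difference of all transcripts from -0.04 to -0.34, the split was 24 higher and 21 lower.

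In laying queens, whose values had been chosen to be low, lower calls outnumbered higher ones. In egg-laying queens 13 members were higher than in virgin queens (background 28%) and 28 were lower (background 27.5%). In recovery queens 13 were higher (background 27.3%) and 25 were lower (background 25.8%). With libraries rescaled to the same sum, these counts were 8 and 37 in egg-laying queens and 10 and 38 in recovery queens. Against virgin queens, 11 members were called higher in all 3 mated groups (14.3%, against 23.1% of all transcripts tested) and 14 lower in all 3 (18.2%, against 20.1%). A further 25 were called higher in inhibited queens alone (32.5%, against 1.58%), and 10 were called lower in both laying groups but not in inhibited queens (13.0%, against 2.33%). The last 2 counts do not show a difference between the mated groups, since that difference is the one that chose the members.

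**Figure D3:**
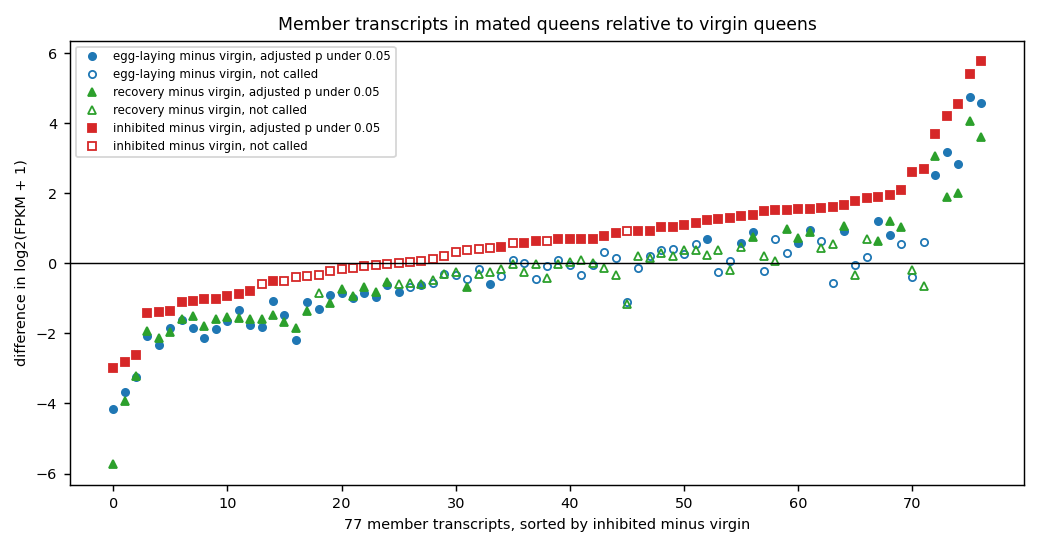
Differences from virgin queens in log2(FPKM + 1) for the 77 members, sorted by inhibited minus virgin; squares are inhibited, circles egg-laying and triangles recovery queens, filled where the limma adjusted p was under 0.05. The inhibited squares cross 0 with 40 called above and 14 called below, and at the right end members such as XM_006563358.1 reach differences of 5.78 in inhibited queens.

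At the one end stood transcripts that were nearly absent before mating. XM_006563358.1 was at 0.352, 0.327 and 0.726 FPKM in virgin queens and at 111, 106 and 42.0 FPKM in inhibited queens. Egg-laying queens had 26.7, 36.7 and 39.4 FPKM, so that the third inhibited queen was just above them, and recovery queens had 17.2, 14.4 and 18.7 FPKM. It exceeded virgin queens by 5.78 ± 0.31 in inhibited queens (limma, adjusted p = 5.36e-08). The 2 gene tables pair this transcript with different gene IDs, so it is given by transcript only.

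XM_006561234.1 (gene 409868) was at 1.41, 0.272 and 1.47 FPKM in the virgin group, at 44.4, 54.4 and 57.0 FPKM in the egg-laying group and at 72.0, 74.6 and 105 FPKM in the inhibited group. XM_006565450.1 (gene 102656570) was at 0.964, 0.436 and 0.687 FPKM in virgin queens and at 25.6, 39.0 and 27.5 FPKM in inhibited queens. Egg-laying queens had 11.3, 16.6 and 15.0 FPKM and recovery queens 7.08, 4.37 and 4.70 FPKM, with no overlap between any of the 4 groups. Both rose from virgin to egg-laying queens, by 4.74 ± 0.25 and 3.17 ± 0.22 (limma, adjusted p = 5.13e-08 and 3.18e-07), and by choice stood higher still in caging.

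At the other end stood transcripts that were far lower in every mated group. XM_001120991.3 (gene 725106) was at 237, 130 and 264 FPKM in virgin queens and at 36.2, 25.2 and 23.5 FPKM in inhibited queens. Its egg-laying values were 13.3, 12.8 and 19.4 FPKM and its recovery values 15.1, 6.63 and 17.6 FPKM. XM_392711.5 (gene 409187) was at 41.0, 25.5 and 49.1 FPKM in virgin queens and at 5.32, 5.36 and 4.97 FPKM in inhibited queens. The inhibited level was below the virgin level by 2.81 ± 0.34 for the former and 2.62 ± 0.22 for the latter on the log2 scale (limma, adjusted p = 3.05e-05 and 1.68e-06). The inhibited mean was 0.135 times the virgin mean in both, and its place above the laying means was fixed by the choice of members.

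Recovery and egg-laying values were both held below the inhibited ones by the choice of members, so transcripts that stayed high after release could not enter, and the comparison of these groups is a description. No member passed the test between recovery and egg-laying queens, against 0.0502% of all transcripts tested with limma (9 of 17924). At an unadjusted p under 0.05 there were 11 members (14.3%), against 11.5% of all transcripts. The median difference was 0.04 against -0.01 over all transcripts, and the recovery mean was below the egg-laying mean in 37 members and above it in 40. Every recovery value lay below every egg-laying value for 8 members (10.4%, background 14.4%) and above for 3 (3.90%, background 9.28%). Single members could still differ by more than the median, since the recovery to egg-laying ratio ran from 0.236 (GstS4) to 1.91 (XM_003249377.2).

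The member nearest the threshold was XM_006565450.1, which was lower in recovery than in egg-laying queens by 1.27 ± 0.22 on the log2 scale (limma, adjusted p = 0.0833). It passed the test with array weights (-1.30) and without the first recovery queen (-1.45). XM_006570276.1 (gene 726294) was at 7.17, 7.99 and 7.39 FPKM in egg-laying and at 5.42, 4.58 and 4.4 FPKM in recovery queens, a difference of -0.56 ± 0.15 (adjusted p = 0.238). In the opposite direction, XM_001120635.3 (gene 724743) was at 4.35, 4.98 and 3.28 FPKM in egg-laying and at 5.81, 7.97 and 8.22 FPKM in recovery queens, a difference of 0.68 ± 0.19 (adjusted p = 0.238). In each of these the groups did not overlap, and none was called.

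**Figure D4:**
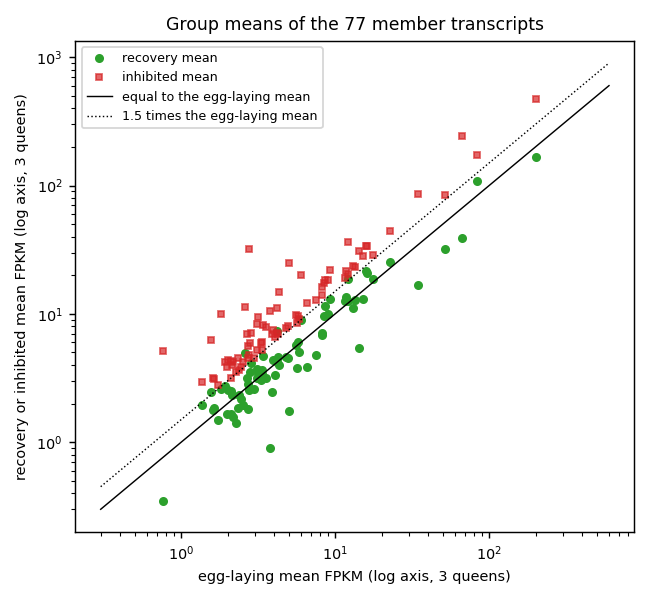
Mean FPKM of the 77 members in recovery queens (circles) and inhibited queens (squares) against the mean in egg-laying queens, on log axes with 3 queens a group; the solid line marks equality and the dotted line 1.5 times. The circles scatter on both sides of equality, with 37 below and 40 above, while the squares lie above the dotted line by the choice of members.

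The fit over all transcripts called few members in the contrasts that chose them, which reads as nothing about the set. For inhibited against egg-laying queens, 5 members were called higher (background 0.0893%), namely XM_623964.4, XM_003251959.2, XM_006558497.1, XM_006569554.1 and XM_001120635.3. For recovery against inhibited queens, 11 members were called lower (background 0.251%), among them XM_003251959.2, XM_006565450.1, XM_006570276.1, XM_006563358.1 and the GstS4 and cytochrome b5-like transcripts. Just inside the ratio of 1.5, XM_001121969.3 (gene 726213), XM_006560199.1 (gene 413582) and XM_006561477.1 (gene 725870) had smaller ratios of 1.51. Just outside it, XM_006560712.1 (gene 412859), XM_006568338.1 and XM_397143.5 (gene 413702) had smaller ratios of 1.497, 1.494 and 1.492.

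Whether the whole gene followed its member was examined for the 37 members whose gene has other transcripts in the table. The members held a median of 27.1% of the summed level of their genes. The sum contains the member, which was chosen to be high in inhibited queens. In inhibited queens the sum was above both laying means in 33 of the 37 and had every inhibited value on top in 19. It kept both ratios at 1.5 or more in 11, and its smaller ratio had a median of 1.28. These counts are given without the share among all gene sums, and are a description only. Genes 724743 and 408808 enter them once for each of their members. Among 37 further transcripts of these genes with a mean of at least 2 FPKM that are not members, 21 had the inhibited mean above both laying means and 8 had it below both, where 29.8% and 34.9% of the 11236 transcripts did so. The levels of transcripts of 1 gene are estimated from shared fragments and are not independent. Only transcripts with a gene ID, 58.1% of the table, could enter these sums, so sums, shares and counts may lack transcripts of a gene. For 29 members no other transcript with the same gene ID was listed, Hbg2 and B-gluc1 among them.

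Among the members with a gene ID, a pair of transcripts shared the ID in 2 genes. For gene 724743, XM_006567779.1 was at 16.9, 15.9 and 22.4 FPKM and XM_001120635.3 at 10.7, 9.38 and 13.5 FPKM in inhibited queens, and the sum over its transcripts was 43.1, 54.5 and 40.3 FPKM in egg-laying, inhibited and recovery queens. Both were above virgin queens when inhibited, by 1.55 ± 0.18 and 1.53 ± 0.19 (limma, adjusted p = 1.79e-05 and 3.39e-05). The other such gene is 408808.

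**Figure D5:**
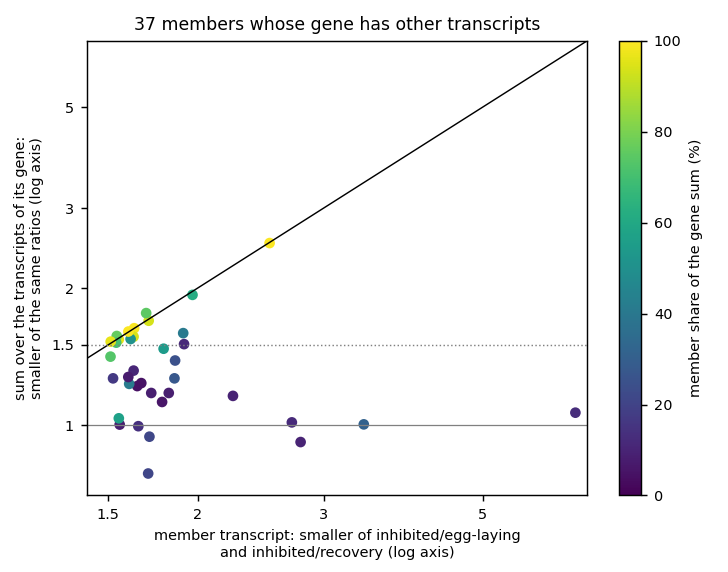
For the 37 members whose gene has other transcripts, the smaller of the 2 inhibited ratios of the sum over the gene (vertical, log axis) against that of the member transcript (horizontal, log axis), coloured by the share of the gene sum that the member holds. Members with a high share lie on the line of equality, whereas the members farthest to the right hold a small share, and their gene sums lie near 1.

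Of 7 haemolymph and storage protein genes, markers of the fat body, none was called by limma between inhibited and egg-laying queens or on release. Few transcripts were called at all, 16 higher and 9 lower of 17924 in the first contrast, 73 and 45 in the second. At an unadjusted p under 0.05 there were 4 and 2 of the 7, against 7.65% and 14.7% of all transcripts. Vitellogenin and apolipophorins met the rule, so counts in these contrasts support nothing. Their inhibited means were 5.48 and 11.8 times their egg-laying means. The study, which used DESeq, lists both as higher in inhibited than in egg-laying queens and as lower on release. The summed level of the 7 was 128 to 181 FPKM in inhibited, 86.3 to 99.9 FPKM in egg-laying and 74.1 to 110 FPKM in recovery queens. In virgin queens it was 143 to 498 FPKM. None of the 7 was at 0 in every library. Without vitellogenin and apolipophorins, which the rule leaves out, the other 5 summed to 86.4 to 113 FPKM in inhibited queens, which overlapped the 77 to 93.2 FPKM of egg-laying and the 69.6 to 91.5 FPKM of recovery queens. No gene of the list is a member. The part of fat body RNA in the members' levels was not tested.

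Of the lists of other gene groups, detoxification enzymes (8 genes) held no gene whose listed transcript is a member. Cytochrome P450 6AS4, 1 of the 8, met the rule but was left out by name. It was at 14.5, 6.78 and 13.3 FPKM in inhibited queens, and its highest laying value was 6.17 FPKM. None of the 8 was called by limma between inhibited and egg-laying queens (3 at an unadjusted p under 0.05, against 7.65% of all transcripts). The rule used this contrast and 6AS4 met it, so these counts are a description. The study, which used DESeq, lists Cytochrome P450 6AS3, 6AS4, 6AS5 and 6BD1 as higher in inhibited than in egg-laying queens. Against virgin queens 6 of the 8 were lower and 1 was higher in inhibited queens, where 26.3% and 27.5% of all transcripts were, with a median difference of -1.70 against -0.04 over all transcripts. Their summed level was 197 to 258 FPKM in inhibited and 176 to 310 FPKM in egg-laying queens, so the groups overlapped. Among 11 glutathione S-transferase and antioxidant genes, an added family, the sum was 871 to 888 FPKM in inhibited queens and 932 to 1013 FPKM in egg-laying queens. None of the 11 was called by limma in this contrast (0 at an unadjusted p under 0.05, against 7.65% of all transcripts). Their median difference was -0.09, against -0.01 over all transcripts.

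The lipid transport and metabolism list held no member either, and clavesin-2 and apolipophorins met the rule but were left out by name. Its 4 genes summed to 481 to 693 FPKM in inhibited, 232 to 291 FPKM in egg-laying and 277 to 485 FPKM in recovery queens. Of the 4, only clavesin-2 was called higher in inhibited than in egg-laying queens, where 0.0893% of all transcripts were. All 4 had an unadjusted p under 0.05 in this contrast, against 7.65% of all transcripts. The rule used this contrast, and clavesin-2 and apolipophorins met it, so these counts are a description and support nothing. Against virgin queens, 3 of the 4 were called higher in inhibited queens, against 27.5% of all transcripts. The lists for proteases, sugar transporters, insulin and TOR signalling, and autophagy had 1 or 2 genes each in the tables, none of them a member.

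The member genes lay on most chromosomes, in unequal shares. Of the 64 genes, 60 have a place on a chromosome of Amel_HAv3.1, with 10 on chromosome 1 (16.7%, against 13.2% of the genes of the transcripts at the same level) and 6 on chromosome 9 (10.0%, against 4.75%). Chromosomes 3 and 10 held 1 each (1.67%, against 6.52% and 6.37%) and chromosome 12 held 0 (against 3.70%). In 4 cases member genes were direct neighbours, given here without the share among other genes. These were Hbg2 and gene 725870 on chromosome 8, genes 100578621 and 726446 on chromosome 1, genes 410484 and 413582 on chromosome 14, and genes 100577440 and 725026 on chromosome 9. Of the first pair, XM_006561477.1 (gene 725870) was at 3.92, 2.98 and 2.67 FPKM in inhibited queens and at 7.42, 4.24 and 9.28 FPKM in virgin queens, so its virgin level was higher, where that of Hbg2 was far lower.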

How the data were processed

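Directional paired-end RNA libraries of 12 ovaries were aligned to Amel_4.5 with TopHat 2.0.9 and assembled with Cufflinks by the authors, who deposited FPKM per transcript. Whole-gene values here are sums over the transcripts that carry the gene ID. FPKM are not counts, so limma 3.58.1 (R 4.3.3, trend) was fitted to log2(FPKM + 1) of the 17924 transcripts with a mean of at least 0.1 FPKM, with 4 group means and p-values adjusted within each contrast (threshold 0.05). Folds on this scale understate changes of low transcripts. The fit was tested on simulated data. The members, gene lists and tests were chosen with earlier results of these data known. Members were named by ratio, inhibited level, virgin to inhibited ratio, gene list or nearness to the 1.5 limit; the other members with a gene name, and XM_396815.4, XM_006570276.1, XM_001120635.3, XM_006567779.1 and XM_006569554.1, were picked after their values were seen. Gene IDs (12556 of 21596 transcripts, 58.1%) came from RefSeq (Amel_HAv3.1) and the study's tables. Depth is known only in relative terms. Each p-value of this fit rests on 1 spread per transcript, pooled over the 3 queens of all 4 groups and moderated by limma across transcripts. Small RNA values and promoter or protein sequences were not analysed here. Alternatives changed the pseudocount, filter, scaling, groups fitted, library weights, replicate block and each library.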

Additional observations from a re-analysis of the deposited data

How the results depend on the processing

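None of the virgin and recovery contrasts of the 32 members named turned direction past the threshold under the alternatives run. Members called between recovery and egg-laying queens stayed at 0, except 1 with array weights and 0 to 1 when single libraries were left out (1 without recovery replicate 1). Rescaling to the same sum gave 8 members higher in egg-laying, 24 higher in inhibited and 38 lower in recovery than in virgin queens. Leaving out single libraries gave 39 to 43 calls (11 to 14 higher, 26 to 30 lower) for egg-laying, 43 to 55 (31 to 41 higher, 9 to 14 lower, 9 without virgin replicate 3) for inhibited and 37 to 42 (13 to 15 higher, 24 to 27 lower) for recovery against virgin queens. The contrasts used for choosing moved most. For inhibited against egg-laying queens the 5 calls became 3 with a pseudocount of 0.1, 0.01 or quantile normalization, 1 with no filter, equal sums or the replicate block, 12 with array weights, and 1 to 6 without single libraries (1 without egg-laying replicate 3, inhibited replicate 1 or 2, or recovery replicate 2; 2 without virgin replicate 1 or egg-laying replicate 1 or 2; 3 without virgin replicate 3 or inhibited replicate 3). For recovery against inhibited queens the 11 calls became 5 with no filter, 17 with a mean of at least 1, 28 with array weights and 3 to 18 without single libraries (3 without inhibited replicate 1; 4 without inhibited replicate 2 or recovery replicate 1 or 2; 6 without inhibited replicate 3 or egg-laying replicate 1; 7 without virgin replicate 1 or egg-laying replicate 2; 18 without virgin replicate 2). The cause was not tested.

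The number of transcripts that met the rule was 44 with a mean of at least 5 FPKM, 17 with ratios of at least 2, and 75 to 154 without single libraries (118 without inhibited replicate 3, 127 without recovery replicate 3, 154 without inhibited replicate 2); the cause was not tested. Of 77 members, 75 were kept with the median of ratios, 72 with equal sums and 62 to 75 without single libraries (62 without inhibited replicate 1, 63 without recovery replicate 1). Replicate numbers were not treated as pairs. Of 18 same-numbered pairs, 3 correlated above 0.1 (range -0.10 to 0.15), where different-numbered pairs ranged from -0.17 to 0.14. Whether same-numbered queens were handled together was not tested. Beyond the calls between inhibited and egg-laying queens given above, the replicate block changed no count by over 1.5 times. Of 2816 values of these members under alternatives, 59 lost and 37 gained a call.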
